A study of Mus musculus with 3 samples.

Results

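Immature thymic epithelium lacking lineage markers was taken as cells that held RNA of *Epcam*, an epithelial adhesion molecule, and *Pax1*, a transcription factor of the third pharyngeal pouch, with little or no RNA of the genes that mark cortical, medullary, parathyroid or hematopoietic cells. These cells were chosen by UMI counts of 9 genes in droplet single-cell libraries of mouse thymus at gestational day 13 to 13.5. A member had at least 1 *Epcam* and 1 *Pax1* UMI, 0 *Ptprc* UMIs, fewer than 20 *Pth* UMIs, a *Krt5* and *Krt17* sum of 1 or less, and a *Psmb11*, *Prss16* and *Ccl25* sum of 2 or less. There were 2448 members among 16365 kept cells: 222 of 4962 in the control library, 64 of 3579 in the one labelled Tbx1 neo2/neo2 (the Tbx1 library) and 2162 of 7824 in the Foxn11089/1089 library. The series compares thymus of C57BL/6 control mice with thymus of mice homozygous for a hypomorphic *Tbx1* allele, made by a neomycin cassette in an intron, or for a *Foxn1* allele with a short deletion. Each genotype had 1 library, so no replicate error could be had, and every interval covers counting error alone. Both mutant libraries were compared with the same control library, so the 2 comparisons are not independent. How many embryos went into each library, and of which sex, could not be found in the sources used here.

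Thymic epithelium arises from pouch endoderm that expresses *Pax1*, *Pax9* and *Eya1*. The transcription factor *Foxn1* drives its growth into cortical and medullary cells. Cortical cells acquire the proteasome subunit *Psmb11*, the protease *Prss16* and the chemokine *Ccl25*, and medullary precursors acquire basal keratins such as *Krt5*.

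The control, Tbx1 and Foxn11089/1089 libraries held 82936619, 137498422 and 204655055 UMIs in 6410, 5759 and 12447 barcodes. Median depth of the kept cells was 14838, 29096 and 17144 UMIs, so the Tbx1 library was the deepest per cell. Members had a median of 19102.5 UMIs in the control, 25430.5 in the Tbx1 library and 19918.5 in Foxn11089/1089. The middle 50% of members spanned 13917 to 23178, 4461 to 46083 and 14663 to 26971 UMIs, by far the widest span in the Tbx1 library. Pairs of libraries shared 17 barcodes (control and Tbx1), 18 (control and Foxn11089/1089) and 28 (both mutants), and 0 barcodes were members in both libraries of a pair. Scrublet called 14, 2 and 195 members likely doublets, or 6.31%, 3.13% and 9.02%. The deletion in *Foxn1* leaves the transcript in place, so 3′ counts of *Foxn1* do not check that genotype label. Members of the Tbx1 library held 24 *Tbx1* UMIs against 8 in the control, so the counts did not show a loss of that gene.

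The limits of the rule split cells that lay close together. A cortical sum of 2 UMIs, just inside, was held by 64, 18 and 247 members of the control, Tbx1 and Foxn11089/1089 libraries, and 45, 8 and 124 cells with a sum of 3 lay just outside. A keratin sum of 1 was held by 41, 3 and 337 members, and 18, 2 and 108 cells with a sum of 2 were left out. *Epcam* stood at 1 UMI in 20, 31 and 115 members, and 92, 241 and 349 cells that passed all else had 0. *Pax1* stood at 1 UMI in 22, 31 and 112 members, and 123, 266 and 456 cells that passed all else had 0. In the Tbx1 library 31 of 64 members therefore sat on each of these 2 thresholds. The *Pth* limit lay in a wide gap in the control, where the highest member had 2 UMIs and the lowest cell left out had 196. In Foxn11089/1089 those values were 11 and 31. Levels of the 9 rule genes are description only, because the members were selected on them.

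The label held unevenly against markers that the rule did not use. After every cell was thinned to 2000 UMIs, *Six2*, a homeobox factor, had a UMI in 21.2% (15.99–27.1), 14.1% (6.64–25.02) and 20.95% (19.3–22.7) of members in the control, Tbx1 and Foxn11089/1089 libraries. A hematopoietic reference, cells with at least 2 UMIs each of *Ptprc* and *Coro1a*, gave 0%, 0.754% and 1.68%, and 0 of 738 control cells allows a share of up to 0.407%. *Pltp*, a phospholipid transfer protein, was found in 29.3%, 9.38% and 16.4% of thinned members against 1.49%, 2.01% and 2.16% of the reference. The potassium channel gene *Kcnn3* was found in 24.8%, 21.9% and 28.9% against 0.678%, 0.503% and 1.92%. Reference cells had median depths of 21115, 62702 and 32964 UMIs before thinning. All 3 markers thus stood above free RNA in each library, and *Pltp* was lowest in the Tbx1 library. Before thinning the member shares were 74.8%, 39.1% and 76.2% for *Six2*, 86.04%, 32.8% and 69.1% for *Pltp* and 79.7%, 40.6% and 83.03% for *Kcnn3*. *Foxn1* itself had a thinned UMI in 10.8%, 0% and 22.4% of members and 0.271%, 0.251% and 1.92% of the reference, and 0 of 64 allows a share of cells with a UMI of up to 4.69%. Few *Foxn1* UMIs are to be had at that depth in 64 cells, so no difference from the reference was detectable there.

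In the Tbx1 library the label did not hold for many of the cells that met the rule. At least 3 markers of another cell type were found after thinning in 28 of its 64 members (43.8%, 31.4–56.7), against 15 of 222 control members (6.76%, 3.83–10.9) and 123 of 2162 Foxn11089/1089 members (5.69%). Of those 28, 21 carried mesenchymal markers and 5 carried thyroid markers. The 28 cells had a median of 1 *Epcam* and 1 *Pax1* UMI, the rule's minimum, at a median depth of 27841.5 UMIs. Unthinned *Epcam* had a UMI in 27.5%, 50.5% and 36.2% of the deeper hematopoietic reference cells, and *Pax1* in 8.40%, 16.3% and 24.5%. The remaining 36 members had medians of 2.5 *Epcam* and 3.5 *Pax1* UMIs at 5026.5 UMIs per cell. Several results for that library are therefore also given without the 28 cells, where this is said, and comparisons over all libraries are also given for control and Foxn11089/1089 alone. The cells are called members by the rule.

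The levels of these markers restate how the cells were picked and are description only. The collagen gene *Col3a1* stood at 53.9 (47.00–61.5), 790.3 (752–829.7) and 128 (125–131) CPM (UMIs divided by the members' total, times 1000000) in members of the control, Tbx1 and Foxn11089/1089 libraries. Without the cells with 3 markers of another type it stood at 15.9, 9.67 and 25.7 CPM. The mesenchymal list as a sum held 206, 2313 and 431 CPM in members, and 65.4, 53.7 and 111 CPM without those cells. Thyroid factors behaved otherwise, as the thyroid list held 3.92, 582 and 1.56 CPM and still 3.40, 632 and 1.39 CPM without the cells. *Nkx2-1*, a thyroid and lung factor, stood at 1.22, 142 and 0.0856 CPM, *Foxe1*, a thyroid factor, at 0.980, 149 and 0.193 CPM and *Hhex* at 1.47, 175 and 0.792 CPM. *Sox2*, a foregut factor, stood at 0.735, 77.95 and 1.01 CPM. Members of the Tbx1 library thus held thyroid and foregut RNA that was near 0 in the others. Unthinned, 9 of its 64 members had at least 3 thyroid markers and 7 had at least 3 airway and foregut markers. Whether the RNA came from these cells alone was not tested.

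The question of the share was how many *Epcam* *Pax1* cells stayed within both the cortical and the keratin limit in each genotype. Members were 11.4% (9.998–12.9) of 1952 such cells in the control, 9.16% (7.12–11.5) of 699 in the Tbx1 library and 62.2% (60.6–63.8) of 3474 in Foxn11089/1089. As the rule counts raw UMIs, the shares were taken again after thinning to 5000 UMIs, which gave 28.8% (26.7–31.1), 24.96% (21.5–28.7) and 76.6% (75.1–78.1). The ratio of Foxn11089/1089 to control was 5.47 before thinning, 2.66 at 5000 UMIs and 3.78 at 10000 UMIs. For the Tbx1 library it was 0.805, 0.865 and 0.721, and the intervals of the 2 shares overlapped before thinning and at 5000 UMIs but not at 10000 UMIs (16.8–20.5 in the control and 10.8–16.4 in the Tbx1 library). Members were 61.1%, 56.3% and 87.0% of the 36, 32 and 154 cells with 2000 to 5000 UMIs. At 5000 to 10000 UMIs they were 11.3%, 23.5% and 78.8%, at 10000 to 20000 UMIs 7.38%, 35.7% and 62.2%, and at 20000 or more 16.6%, 5.82% and 58.4%. The share thus fell from bin to bin in Foxn11089/1089 but not in the other libraries, where some bins held few cells (17 and 14 in the middle bins of the Tbx1 library). These shares are description only, because the rule counts cortical genes that were themselves lower in Foxn11089/1089 cells above its limit, with *Psmb11* at 288 CPM in control and 49.6 CPM in Foxn11089/1089 cortical-marker cells and *Prss16* at 359 and 14.3 CPM. Of the cells that met the rule at 5000 thinned UMIs, 33.2%, 11.8% and 76.6% also met it on raw counts. Without the 28 cells and their counterparts, the share was 10.9% (9.51–12.4) in the control and 5.54% (3.91–7.59) in the Tbx1 library, and these intervals did not overlap.

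The other *Epcam* *Pax1* cells were divided by the same genes. Cortical-marker cells, with a cortical sum over 2 and a keratin sum of 1 or less, were 56.3% of these cells in the control, 42.8% in the Tbx1 library and 15.6% in Foxn11089/1089. Keratin cells, with the reverse pattern, were 8.15%, 2.0% and 18.5%, and cells over both limits were 24.2%, 46.1% and 3.66%. After thinning to 5000 UMIs cortical-marker cells were 48.7%, 49.2% and 7.39%, keratin cells 9.39%, 8.32% and 15.01%, and cells over both limits 13.1%, 17.5% and 0.969%. The Tbx1 library was then close to the control for cortical-marker and keratin cells. These shares are set by the rule and are description only.

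**Figure D1:**
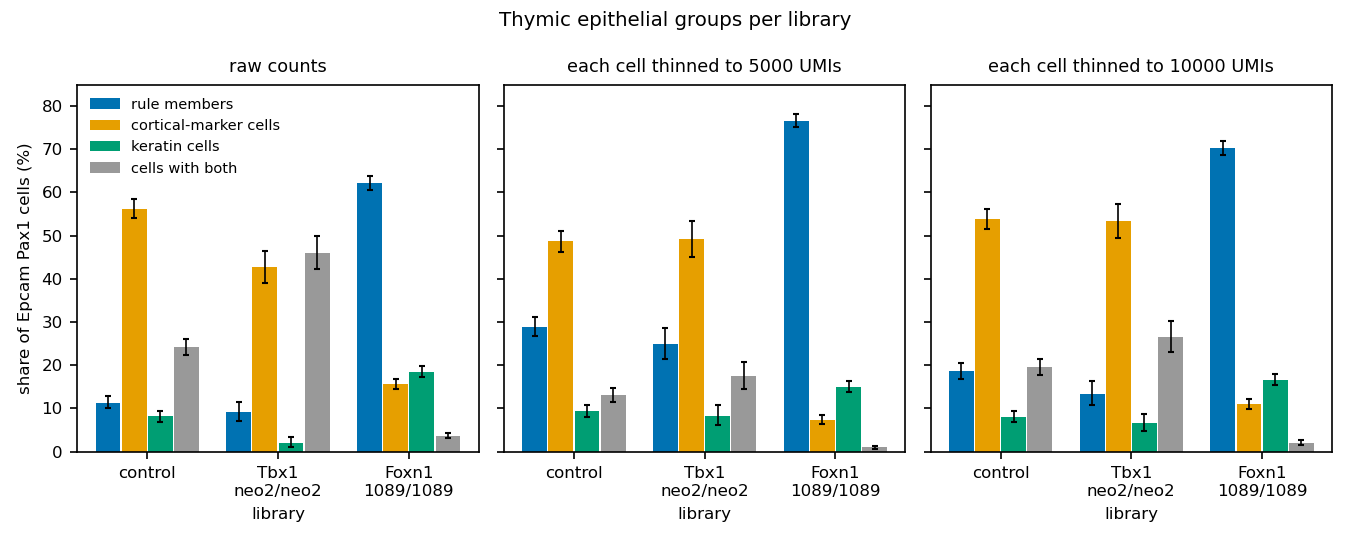
Members as a percent of *Epcam* *Pax1* cells in each library, from raw counts and after thinning to 5000 and 10000 UMIs, with exact 95% intervals. Foxn11089/1089 is highest under each count, at 62.2%, 76.6% and 70.3%.

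The markers of the label differed in level between libraries. *Six2* (Ensembl ENSMUSG00000024134, chromosome 17, 85684277 to 85688274, GRCm38) stood at 128 (117–139.6), 28.7 (21.9–37.1) and 117 (114–120.1) CPM in members of the control, Tbx1 and Foxn11089/1089 libraries. *Pltp* (ENSMUSG00000017754, chromosome 2, 164839518 to 164857711) stood at 243 (228–258), 35.6 (27.9–44.7) and 96.1 (93.3–98.9) CPM, and *Kcnn3* (ENSMUSG00000000794, chromosome 3, 89520164 to 89675132) at 153 (141–165), 46.3 (37.4–56.6) and 176 (172–179.9) CPM. *Six2* and *Kcnn3* were alike in control and Foxn11089/1089, with log2 ratios of -0.13 (-0.26 to 0.00) and 0.21 (0.09 to 0.33), whereas *Pltp* fell by 1.34 on the log2 scale. All 3 were lowest in the Tbx1 library, with log2 ratios to control of -2.16 for *Six2*, -2.77 for *Pltp* and -1.72 for *Kcnn3*. Without the cells with 3 markers of another type these were -1.26, -2.0 and -0.78, so *Kcnn3* was then less than 2-fold lower. The direction itself turned under other settings, as *Kcnn3* stood at 0.12 with each cell weighted equally, 0.14 with members chosen after thinning to 5000 UMIs and 0.090 with at least 2 UMIs each of *Epcam* and *Pax1*, and *Six2* stood at 0.23 with members chosen after thinning. None of the 3 set members apart from cortical-marker cells by a higher level, since those cells held 167, 188 and 140.5 CPM of *Six2*, 524, 348 and 222 CPM of *Pltp* and 282, 283 and 262 CPM of *Kcnn3*. Keratin cells held 21.97, 69.6 and 45.8 CPM of *Six2*, 96.4, 75.3 and 33.3 CPM of *Pltp* and 70.2, 62.1 and 56.7 CPM of *Kcnn3*, and in control and Foxn11089/1089 the 3 genes were each at least 2-fold higher in members.

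Of 13 pouch factors, 12, 12 and 13 had a UMI in members of the control, Tbx1 and Foxn11089/1089 libraries. *Pax9*, the paralogue of *Pax1*, stood at 156 (144–169), 22.4 (16.4–29.9) and 180.5 (177–184) CPM in the control, Tbx1 and Foxn11089/1089 libraries, low only in the Tbx1 library. *Eya1*, a transcriptional coactivator, stood at 24.7 (20.1–30.1), 19.5 (13.9–26.5) and 76.5 (74.03–79.1) CPM, highest in Foxn11089/1089. *Foxn1* (ENSMUSG00000002057, chromosome 11, 78357577 to 78386558) stood at 43.3 (37.2–50.2), 8.77 (5.20–13.9) and 144 (140.1–147) CPM, lowest in the Tbx1 library. Against cortical-marker cells, 0 of 11 pouch factors were 2-fold different in both control and Foxn11089/1089, with list medians of -0.11 and -0.23 log2 there and -0.98 in the Tbx1 library. Over all 10112 eligible genes the medians against cortical-marker cells were 0.02, 0.05 and -0.04 in control, Tbx1 and Foxn11089/1089, and over 9626 genes against keratin cells they were 0.06, 0.05 and -0.01.

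Comparison with cortical-marker cells asked which genes outside the rule went with few or no cortical UMIs. Both groups were drawn from the same cells by the rule, so this was no test. Of the 10112 genes, 28 (0.277%) were at least 2-fold higher in members in all 3 libraries and 74 (0.732%) were lower, and in control and Foxn11089/1089 alone the counts were 45 (0.445%) and 102 (1.01%). The genes of antigen presentation were among the lower, with 6 of 9 lower in control and Foxn11089/1089 and list medians of -1.85 and -1.49 there. *H2-Aa*, an MHC class II chain, stood at 3.43, 0.974 and 2.46 CPM in members against 59.2, 22.9 and 21.1 CPM in cortical-marker cells of the control, Tbx1 and Foxn11089/1089 libraries. *Cd74*, the class II invariant chain, stood at 22.04, 0.974 and 5.76 against 279, 85.04 and 37.3 CPM. The checkpoint ligand *Cd274* stood at 3.43, 0.487 and 1.61 against 32.8, 41.3 and 8.80 CPM and *Crip3*, a LIM protein gene, at 3.43, 3.90 and 0.749 against 86.5, 75.4 and 7.45 CPM. Markers of other cell types differed as well. Hematopoietic genes were higher in members in 7 of 7 cases in control (median 1.56) and 1 of 5 in Foxn11089/1089 (0.63). Mesenchymal genes were higher in 5 of 8 cases in control (1.06), 9 of 9 in the Tbx1 library (2.90) and 0 of 9 in Foxn11089/1089. Of the 10112 genes, held to a higher UMI minimum, 288, 824 and 81 were 2-fold higher in control, Tbx1 and Foxn11089/1089. Without the members with 3 markers of another type, the mesenchymal list held 65.4, 53.7 and 111 CPM in members. All cortical-marker cells held 94.9, 323 and 438 CPM. The hematopoietic list of control members fell from 133 to 18.6 CPM without them, against 29.5 CPM in cortical-marker cells.

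Among other cortical genes, 5 of 8 were lower in members of both control and Foxn11089/1089: *Dll4*, *Ctsl*, *Ly75*, *Cd83* and *Tbata*. *Dll4*, the Notch ligand that directs T cell fate, stood at 8.08, 5.36 and 5.86 CPM in members and 22.5, 33.5 and 19.9 CPM in cortical-marker cells. The protease *Ctsl* stood at 242, 302 and 364 against 775, 1084 and 776 CPM, and the lectin receptor *Ly75* at 11.02, 4.38 and 3.25 against 45.6, 48.3 and 9.26 CPM. The simple-epithelium keratins *Krt8* and *Krt18* were also lower, at 246, 281 and 336 against 618, 1193 and 685 CPM and 369, 239 and 183 against 1826, 1075 and 436 CPM. These were the only 2 of 12 eligible epithelial genes lower in both control and Foxn11089/1089, and 0 were higher in both. In control alone 3 of the 12 were higher and 2 lower, with a list median of -0.0081. The cytokine *Il7* stood at 129.8, 51.2 and 241 against 246, 338 and 452 CPM. Higher in members were *Cldn4*, a tight-junction claudin, at 21.8, 24.4 and 12.1 against 5.30, 6.94 and 5.27 CPM, and *Atf3*, a stress-induced factor, at 56.8, 59.4 and 102 against 11.9, 10.4 and 34.5 CPM. *Anxa1*, an annexin, stood at 18.9, 46.3 and 5.59 against 5.04, 5.29 and 2.18 CPM and *Grhl3*, a factor of surface epithelium, at 3.92, 4.38 and 6.08 against 1.01, 1.92 and 2.18 CPM. The lists for S phase, G2/M, FGF, BMP, WNT, Notch, hedgehog and basement membrane had 0 genes 2-fold different from cortical-marker cells in both control and Foxn11089/1089.

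Against keratin cells, 31 of 9626 genes (0.322%) were at least 2-fold higher in members in all 3 libraries and 126 (1.31%) were lower. In control and Foxn11089/1089 alone, 109 (1.13%) were higher and 254 (2.64%) lower. Counts without the Tbx1 library, which had 14 keratin cells, are larger by construction because fewer libraries had to pass. Genes of stratified epithelium were lowest, as *Krtdap*, a keratinocyte protein, stood at 31.8, 2.92 and 36.7 CPM in members against 1446, 755 and 338 CPM in keratin cells. *Hopx*, a homeodomain-only protein gene, stood at 5.63, 1.95 and 5.78 against 289, 126 and 60.9 CPM. In the epithelial list 9 of 13 genes were lower in control and Foxn11089/1089, and in the medullary list 4 of 8, *Krt15*, *Cldn3*, *Cldn4* and *Plet1*. *Cldn3* stood at 4.16, 76.5 and 7.32 CPM in members against 78.3, 65.9 and 92.8 CPM, higher in the Tbx1 members, and *Plet1*, a surface protein of early thymic epithelium, at 9.31, 4.87 and 13.9 against 20.2, 26.4 and 57.7 CPM. *Dll4* and *Cd83* were higher in members, *Dll4* at 8.08, 5.36 and 5.86 against 1.77, 1.88 and 2.03 CPM. In the Notch list 5 of 9 genes were lower in members of control and Foxn11089/1089, *Jag1*, *Notch1*, *Notch3*, *Heyl* and *Nrarp*, with list medians of -1.32 and -1.19 there, and 3 (*Notch1*, *Notch3* and *Nrarp*) were lower in all 3 libraries.

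**Figure D2:**
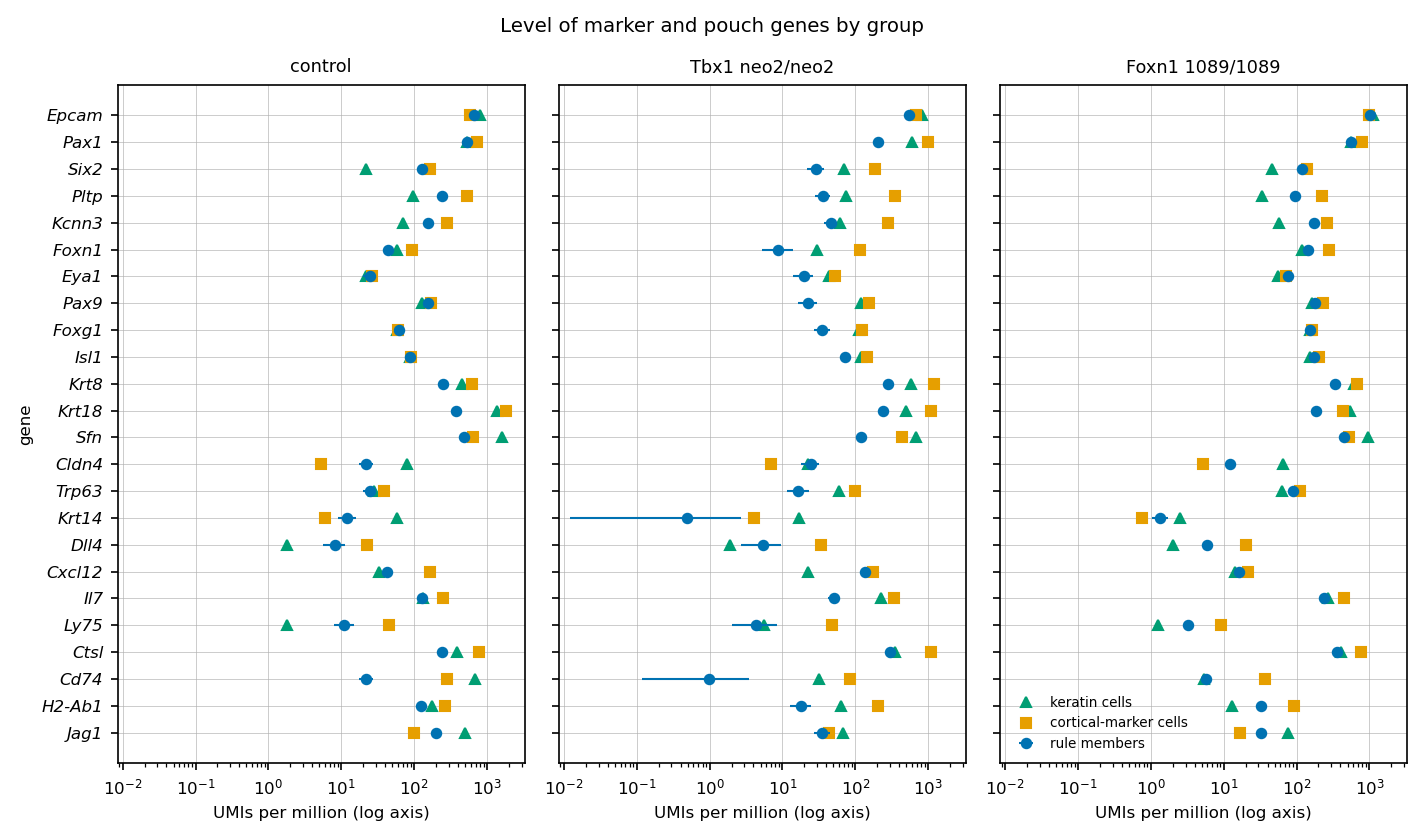
CPM of selected genes in members, cortical-marker cells and keratin cells of each library on a log axis, with exact 95% intervals for members. *Six2*, *Pltp* and *Kcnn3* of control and Foxn11089/1089 members lie above keratin cells.

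Proliferation genes were present in most control members. After thinning, at least 2 G2/M genes were found in 75.2% (69.01–80.8) of members in the control, 57.8% in the Tbx1 library and 50.4% (48.3–52.5) in Foxn11089/1089. Members with at least 2 S phase genes were 45.05%, 48.4% and 35.4%, and those with neither were 13.1%, 21.9% and 34.0%. Cortical-marker cells with neither were 27.7%, 19.7% and 52.3%, and keratin cells 27.7%, 14.3% and 38.9%. By these shares control and Foxn11089/1089 members held such genes more often than cortical-marker cells. By level, the G2/M list medians of members over cortical-marker cells were 0.03 and -0.01 log2 in control and Foxn11089/1089. Those of the S phase list were 0.19 and 0.51. The reference of hematopoietic cells, which also divide, had neither in 17.9%, 17.6% and 24.7%, and free RNA was not separated from these calls. The proliferation gene *Mki67* had a thinned UMI in 25.2%, 21.9% and 20.95% of members. By level, 0 of 8 S phase and 0 of 10 G2/M genes changed 2-fold between Foxn11089/1089 and control members, with medians of -0.05 and -0.26.

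The comparison of Foxn11089/1089 with control members set side by side cells picked by the same counts in each library. The cortical genes of the rule were lower in Foxn11089/1089, so its members need not be the same kind of cell as control members. *Prss16* had a UMI in 45.5% of control and 7.96% of Foxn11089/1089 members. A difference in which cells were picked cannot be told apart here from a change within cells. A gene was called where the ratio of its summed CPM was at least 2-fold. Of 12417 genes with at least 50 UMIs, 1832 were higher in Foxn11089/1089 (14.8%) and 507 were lower (4.08%). The median log2 ratio of all tested genes was 0.23, and each ratio is to be read against that shift. Under median-of-ratios scaling, which set that median at -0.014, 57.1% of the called genes were higher, against 78.3% here. Relative to the shift *Kcnn3* stood at -0.021 and *Pax9* at -0.020, so the sign of these 2 changed, as did that of *Bmp7* and of list medians between 0 and 0.23. The median was 0.26 in cortical-marker cells and 0.35 in the hematopoietic reference. Of the genes higher in members, 946 of the 1436 tested in cortical-marker cells (65.9%) and 607 of the 1170 tested in the reference (51.9%) were also 2-fold higher there, against 14.1% and 18.1% of all genes tested in both. Of the genes lower in members, 349 of 465 (75.1%) and 179 of 419 (42.7%) were also lower, against 4.79% and 3.35%. Ratios in these 2 groups are therefore given beside the members' ratio for some of the named genes.

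Pouch factors were higher in Foxn11089/1089 members, with 7 of 12 called higher, 0 lower and a list median of 1.12, or 0.89 relative to the shift. *Eya1* had a log2 ratio of 1.63 (1.34 to 1.93). *Foxn1* itself rose, with a ratio of 1.73 (1.51 to 1.95). In cortical-marker cells the list median was 1.33 and 9 of 11 were higher, and in the reference it was 3.41 and 9 of 10 were higher. The rise was thus not limited to members, and its log2 ratio was larger in the reference. There the ratios of *Eya1* and *Foxn1* were 4.26 and 4.04, so both were also higher in cells that should lack them. Thinned *Foxn1*, as given above, was found in a smaller share of reference cells than of members in both libraries. For *Foxn1* the larger ratio was thus no larger rise in the share of cells. *Pax9* and the T-box gene *Tbx1* were not called, at 0.21 and 0.32. *Trp63*, a factor of basal epithelium, was higher at 24.7 (20.1–30.1) and 90.8 (88.1–93.6) CPM in control and Foxn11089/1089 members, and *Id1*, a target of BMP signaling, was higher at 158 (146–171) and 661 (653–668) CPM. *Id2* had a ratio of 1.88, while the BMP ligands *Bmp4* and *Bmp7* were under 2-fold at 0.63 and 0.10. *Id1* was also higher in cortical-marker cells (2.13) and in the reference (3.15). Thinned *Id1* was found in 24.3%, 31.2% and 65.3% of members and 1.90%, 4.52% and 10.1% of the reference in the control, Tbx1 and Foxn11089/1089 libraries.

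Genes that were lower in Foxn11089/1089 members without a like fall in the hematopoietic reference are described next, chosen after the values were seen. *Jag1* (ENSMUSG00000027276, chromosome 2, 137081456 to 137116644), a Notch ligand, stood at 197 (184–211) and 32.98 (31.4–34.7) CPM in control and Foxn11089/1089 members, a log2 ratio of -2.58 (-2.70 to -2.45), or -2.81 relative to the shift. Its ratio was -2.57 in cortical-marker cells and -0.26 in the reference. Thinned *Jag1* was found in 29.3%, 10.9% and 5.13% of members and 1.76%, 0.251% and 1.44% of the reference in the control, Tbx1 and Foxn11089/1089 libraries. The receptor *Notch2* was lower at 82.3 (73.7–91.6) and 18.6 (17.4–19.9) CPM, but it was lower in the reference as well (-1.38). *Notch1* and the targets *Hes1* and *Hey1* were under 2-fold, at 0.70, 0.75 and 0.68. *H2-Ab1*, a class II chain, had ratios of -1.92 (-2.07 to -1.77) in members, -1.55 in cortical-marker cells and 1.45 in the reference, where some hematopoietic cells express class II themselves. In the antigen-presentation list 5 of 10 genes were lower and 0 higher in members, with a median of -1.04, and 3 of 9 were lower without the cells with markers of another type, with a median of -0.65. The chemokine *Cxcl12* fell by 1.39 and *Pltp* by 1.34 on the log2 scale, with reference ratios of 0.43 and 0.52.

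Keratins and other cortical genes differed less evenly. *Krt18* stood at 369 (351–388) and 183 (179.6–187) CPM in control and Foxn11089/1089 members and *Krt14*, a basal keratin, at 12.00 (8.88–15.9) and 1.35 (1.04–1.73) CPM, both lower, whereas *Krt8* was under 2-fold at 0.45 and *Krt15* rose by 1.94. Of 13 epithelial genes 0 were higher and 2 lower, with a median of -0.10. Of 7 cortical genes outside the rule 3 were lower and 0 higher, with a median of -0.48. Those were *Ly75* at -1.76 (-2.25 to -1.25), *Cxcl12* and *Cd83* at -1.10 (-1.47 to -0.71). *Ctsl*, *Dll4* and *Il7* were not called, at 0.59, -0.46 and 0.89. Of 4 cell-cycle inhibitors 1 was lower, *Cdkn1b* at -1.08, and 0 were called higher, with *Cdkn1c* just under 2-fold at 0.99. Without the cells with markers of another type 2 of the 4 were higher and 1 lower. In the FGF list 0 of 8 genes were called, with a median of -0.16, and *Etv4* and *Spry2*, targets of that pathway, stood at -0.89 and -0.82. In the WNT list 3 of 10 were higher and 0 lower in members, with a median of 0.46, including the inhibitors *Sfrp1* at 1.46 and *Sfrp2* at 1.89. Without the cells with markers of another type 2 of 9 were higher and 0 lower, with a median of 0.54. In the reference 8 of 9 genes of that list were higher and 1 lower, with a median of 2.06.

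**Figure D3:**
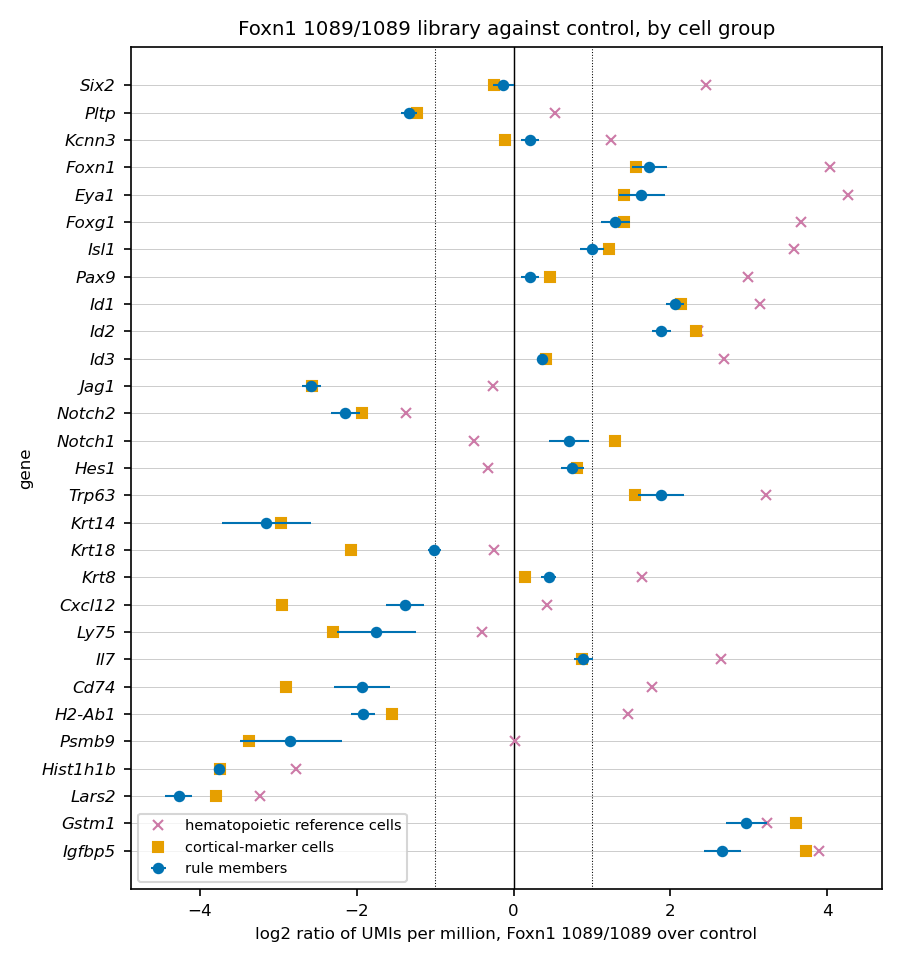
Log2 ratio of Foxn11089/1089 to control for named genes in members, cortical-marker cells and the hematopoietic reference, with exact 95% intervals for members. *Jag1* lies at -2.58, -2.57 and -0.26 in the 3 groups, in that order.

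Genes with at least 300 UMIs in all and 10 in each library were ranked, leaving out the rule genes, sex-linked genes, unnamed gene models and genes of mitochondria, hemoglobin and ribosomes. The 10 lowest of these 8703 in Foxn11089/1089 members were *Lars2*, *Hist1h3e*, *Ifitm1*, *Hist1h2bj*, *Hist1h1b*, *Hist1h1a*, *AY036118*, *Hist1h4h*, *Hist1h1e* and *Jag1*. *Lars2*, a mitochondrial leucyl-tRNA synthetase, stood at 177 and 9.16 CPM in control and Foxn11089/1089 members, and its log2 ratio was -4.27 in members, -3.79 in cortical-marker cells and -3.24 in the reference. The linker histone *Hist1h1b* stood at 1301 and 96.6 CPM, with ratios of -3.75, -3.75 and -2.77. *Ifitm1*, an interferon-induced membrane protein, had ratios of -4.17, -0.74 and -2.32, and in members it stood at -2.40 without the cells with markers of another type. The 10 highest of the 8703 were *Col9a1*, *Spink8*, *Gstm1*, *Hs3st6*, *Egr2*, *Capn6*, *Dusp2*, *Wdfy1*, *Map1b* and *Igfbp5*. *Col9a1*, a cartilage collagen, stood at 7.10 and 81.5 CPM, with ratios of 3.52, 3.72 and 3.33. *Gstm1*, a glutathione transferase, had ratios of 2.96 in members and 3.23 in the reference. Of these 20, *Jag1* and the phosphatase *Dusp2* (2.73 in members and 0.70 in the reference) were under 2-fold in the reference.

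RNA of other tissues also differed between Foxn11089/1089 and control members. The embryonic globin *Hbb-y* stood at 26.2 (21.5–31.7) and 423 (418–429) CPM, and thinned it was found in 4.95%, 10.9% and 57.3% of members and 5.69%, 7.29% and 55.6% of the reference in the control, Tbx1 and Foxn11089/1089 libraries, so its share in members was at the level of the reference in control and Foxn11089/1089. Erythroid genes were 6 of 6 higher, with a median of 2.83, and 6 of 6 hematopoietic genes were lower, with a median of -3.83. Without the cells with markers of another type 2 of 4 hematopoietic genes were lower, with a median of -1.07, and *Tyrobp*, a myeloid adaptor, was at -0.01. Mesenchymal genes were 6 of 9 higher (median 1.12), and 4 without those cells (0.78). In cortical-marker cells 8 of 9 were higher (2.09) and in the reference 7 of 9 (2.67), so this was not limited to members. Endothelial genes were 5 of 6 higher (1.43), and 3 without them (0.93). *Chga*, a granule protein of endocrine cells, stood at 0.735 (0.152–2.15) and 16.8 (15.6–18.00) CPM in members, and in the reference it stood higher, at 1.77 and 311 CPM.

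The comparison of the Tbx1 library with control members is given for the rule members as they stand. Of 8491 tested genes 1694 were higher (19.95%) and 471 lower (5.55%), with a median log2 ratio of 0.34. That median was -0.011 among genes with at least 300 UMIs, 0.16 with each cell weighted equally and 0.23 without the cells with markers of another type, so the shift depended on the setting. Median-of-ratios scaling put 49.2% of the called genes higher, against 78.2% here. Without the cells with 3 markers of another type, left out in both libraries, 1001 of 7316 tested genes were higher and 435 lower. The median was 0.38 in cortical-marker cells and 0.39 in the hematopoietic reference of the same 2 libraries. By the same ranking, which left out thyroid genes such as *Foxe1* and *Hhex* that had under 10 UMIs in the control, the 10 highest of 2695 genes were *Eln*, *Sfrp2*, *Acta2*, *Igfbp5*, *S100a6*, *Col1a2*, *Meg3*, *Col3a1*, *Mt1* and *Map1b*. *Eln*, elastin, stood at 3.67 and 240.2 CPM in control and Tbx1 members, a ratio of 6.03 that was 2.04 without those cells. *Acta2*, smooth-muscle actin, *Col1a2* and *Col3a1* had ratios of 5.16, 4.27 and 3.87, which were -0.70, -0.012 and -0.72 without them. The 10 lowest were *Hist1h1a*, *Hist1h3e*, *Hist1h1b*, *Lars2*, *Hist1h1e*, *Enho*, *AY036118*, *Pax9*, *H2-Ab1* and *Pltp*. *Pax9* had a ratio of -2.80 (-3.27 to -2.37), or -1.81 without the cells, and *H2-Ab1* of -2.78 (-3.30 to -2.29), or -1.73. Pouch factors were 0 of 10 higher and 4 lower, with a median of -0.56, whereas without the cells 1 was higher and 3 lower and the median was 0.081. Thyroid genes were 5 of 5 higher, with a median of 7.08, and 4 of 4 higher without the cells, with a median of 7.28. The thyroid list held 16 UMIs in control members and 1195 in Tbx1 members (13 and 588 without the cells). A thyroid gene could therefore reach the UMI minimum for testing only by being high in the Tbx1 library. These counts of higher genes were thus fixed by the minimum and show nothing further. The summed thyroid list, which had no such minimum, held 3.92 and 582 CPM in control and Tbx1 members. In cortical-marker cells the list stood at 0.954 CPM in control and 72.8 CPM in the Tbx1 library. There 4 of 299 cortical-marker cells held at least 3 thyroid markers, and 2 did after thinning. Whether few cells carried that RNA was not tested.

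The remaining lists were counted in the same way between Foxn11089/1089 and control members, where 14.8% of all tested genes were higher and 4.08% lower. Medullary genes were 2 of 8 higher and 1 lower (median 0.06), BMP genes 2 of 9 higher and 0 lower (0.62, against 8 of 8 higher and 2.37 in the reference) and Notch genes 0 of 9 higher and 2 lower (-0.06). Basement-membrane genes were 1 of 10 higher (0.03), immediate-early and stress genes 1 of 8 (0.77), hedgehog genes 0 of 4 (0.38) and the 2 nuclear RNAs 0 of 2 (0.09). Cell-cycle inhibitors were 0 of 4 higher and 1 lower (0.65), and label markers outside the rule were 0 of 3 higher and 1 lower (-0.13). Glial and neuronal genes were 0 of 3 called (0.51), of which *Stmn2*, a microtubule regulator, made up most at 642 and 881 CPM. Sex-linked genes were 4 of 5 higher (1.84), as they were in cortical-marker cells (1.69) and the reference (1.29). Parathyroid genes were 1 of 2 higher (2.54), airway and foregut genes 1 of 2 (1.18) and myogenic genes 1 of 3 (0.00), and 0 thyroid genes could be tested. In control members the airway and foregut list held 8 UMIs, *Myog* and *Actc1* held 0, and *Chga* was low, as given above. Such called genes could reach the UMI minimum only by being high in Foxn11089/1089, so these calls show nothing further.

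Variation among members was read from thinned counts. Of the 30 genes with the highest variance-to-mean ratios in each library, 8 were the same in all 3 libraries and 13 in control and Foxn11089/1089. The nuclear RNA *Malat1* had ratios of 9.87, 16.8 and 7.54 in the control, Tbx1 and Foxn11089/1089 libraries, *Col3a1* of 2.64, 5.83 and 4.39 and *Ube2c*, a mitotic ubiquitin ligase, of 2.45, 3.55 and 3.65. *Tmsb4x*, an actin-binding peptide, had ratios of 2.45, 6.73 and 3.20 and *Ptn*, a growth factor, of 2.40, 7.63 and 2.76. *Col3a1* had a thinned UMI in 5.41%, 32.8% and 8.23% of members and *Ube2c* in 52.7%, 43.8% and 31.1%, while the reference held *Col3a1* in 2.03%, 7.29% and 10.1%.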

How the data were processed

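Single cells of E13 to E13.5 thymus from 3 libraries, 1 per genotype, were sequenced on a droplet platform. The authors aligned reads to mm10 and made UMI counts with Cell Ranger 3.0.0, and clustered cells with Seurat. The deposited values are raw counts for 27998 genes. Barcodes with at least 200 genes, 2000 UMIs, under 20% mitochondrial and under 5% hemoglobin UMIs were kept. Members and gene lists were chosen with earlier results of these data known. The rule for named genes was written in advance but with those results known: every gene of 27 lists (218 genes), the 10 highest and 10 lowest log2 ratios per genotype comparison among genes with at least 300 UMIs over both libraries and 10 in each (rule genes, sex-linked genes, Gm or Rik models and genes of mitochondria, hemoglobin and ribosomes left out), and the 15 highest and lowest against each other group. Genes outside that rule were named after their values were seen. UMIs were summed over members, scaled to the library's total of members and compared for genes with at least 50 UMIs, rule genes left out, and genes at least 2-fold different were called. List medians used 0.5 UMI added to each sum. Shares carry exact Clopper-Pearson intervals, CPM exact Poisson intervals and log2 ratios exact conditional binomial intervals, at 95%, with a floor of 3 counts for 0. Cells were thinned without replacement to 2000, 5000 or 10000 UMIs. Doublets were scored by Scrublet in scanpy 1.11.5. Other tools were Python 3.11.15, numpy 2.4.6, scipy 1.17.1, pandas 2.3.3, scikit-learn 1.9.0 and matplotlib 3.10.9, and the code was tested on simulated data. Coordinates are from GENCODE M21. Alternatives changed depth and mitochondrial limits, doublets, rule thresholds, scaling and count minimums. No test across genotypes was run because each had 1 library.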

Additional observations from a re-analysis of the deposited data

Results flagged for a closer look

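Among barcodes left out for depth, mitochondrial or hemoglobin UMIs, which no comparison used, 261 of 4623 met the gene part of the rule in Foxn11089/1089, or 5.65% (4.998–6.35). The control library gave 22 of 1448, or 1.52% (0.955–2.29), and the Tbx1 library 35 of 2180, or 1.61%. A signal in cells outside the comparisons, above the level in the control, brought this share here. Of the 261, 161 were over the hemoglobin limit, 85 had under 2000 UMIs and 27 were over the mitochondrial limit, and some met more than 1. Of the 22 in the control 20 had under 2000 UMIs, as did 29 of the 35 in the Tbx1 library. The median depth of these barcodes was 972, 1337 and 11263 UMIs in the control, Tbx1 and Foxn11089/1089 libraries, so the shares set unlike barcodes side by side. They were not added to the members, and why they were more frequent was not tested.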

How the results depend on the processing

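Values below hold for the settings that were run, and leaving cells out for markers of another type, requiring 2 UMIs of *Epcam* and *Pax1* and leaving out the Tbx1 library were chosen after seeing the data. The cause was not tested unless named. With a cortical sum of 0, members were 4.05% of *Epcam* *Pax1* cells in the control, 3.29% in the Tbx1 library and 38.1% in Foxn11089/1089. With a sum up to 5 they were 18.5%, 12.4% and 69.1%. A keratin sum of 0 gave 9.27% in the control and 52.5% in Foxn11089/1089. Thinning to 5000 UMIs gave 28.8%, 24.96% and 76.6%, and to 10000 UMIs 18.6%, 13.4% and 70.3%. In Foxn11089/1089, 0 *Pth* UMIs gave 65.0%. In the Tbx1 library a minimum of 5000 UMIs gave 6.90%, leaving out cells with other markers 5.54%, and 2 UMIs of *Epcam* and *Pax1* 2.24%. Under each of these settings Foxn11089/1089 had the highest share. Median-of-ratios scaling gave 959 higher and 991 lower of 8491 genes in the Tbx1 library, and 1178 and 886 of 12417 in Foxn11089/1089. A minimum of 300 UMIs left fewer genes to test. Then 242 were higher and 185 lower of 2860 in the Tbx1 library, and 967 and 243 of 9206 in Foxn11089/1089. Members chosen at 5000 thinned UMIs gave 259 of 10772 lower in the Tbx1 library. There, 1001 of 7316 were higher without cells with other markers and 660 of 6723 with 2 UMIs of *Epcam* and *Pax1*. Without that library, 45 of 10112 genes were higher in members than in cortical-marker cells. Of 9626 genes, 109 were then higher and 254 lower than in keratin cells, and 13 variable genes were shared. Genes called at 2-fold reversed in 9 cases, 8 of them in the Tbx1 library, and genes under 2-fold, such as *Kcnn3*, *Pax9* and *Bmp7* in Foxn11089/1089 under median-of-ratios scaling, also changed sign. *Kcnn3* had log2 ratios of 0.12 with each cell weighted equally, 0.14 with members chosen after thinning and 0.090 with 2 UMIs of *Epcam* and *Pax1*. *Six2* stood at 0.23 after thinning. Without cells with other markers *Acta2* stood at -0.70, *Col1a2* at -0.012 and *Col3a1* at -0.72, and with 2 UMIs of *Epcam* and *Pax1* *Mt1* stood at -1.29. In Foxn11089/1089, *Tyrobp* stood at 0.99 with 2 UMIs. Other ratios of named genes in Foxn11089/1089 stayed within their interval in 416 cases and left it in 92. Ratios in the Tbx1 library did so in 123 and 66. Each genotype had 1 library, so genotype cannot be told apart from library, litter or day of preparation, and *Epcam* and *Pax1* UMIs from free RNA cannot be told apart from the cell's own at the rule's minimum. The rule counts raw UMIs, so its shares depend on depth. The number of cells limits statements on the Tbx1 library, where 64 cells met the rule and 14 were keratin cells.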
